A study of Homo sapiens with 20 samples.

Results

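The 8 genes described here encode enzymes that make amino acids and load one-carbon units onto folate: ASNS (ENSG00000070669), PSAT1 (ENSG00000135069), PHGDH (ENSG00000092621), PSPH (ENSG00000146733), SHMT2 (ENSG00000182199), MTHFD2 (ENSG00000065911), ALDH18A1 (ENSG00000059573) and PYCR1 (ENSG00000183010). They were selected by gene identifier for their known function, with earlier results of these data known, and all 8 are present among the 19962 genes of the count table. The measurement was the RNA recovered with the RNA-binding protein IGF2BP3 from HCT116 cells under 2 kinds of stress and in their controls.

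ATF4 is the transcription factor whose mRNA is translated more when the integrated stress response phosphorylates the initiation factor eIF2 alpha, and genes of amino acid synthesis are among its known targets. PHGDH, PSAT1 and PSPH act in turn to make serine from a glycolytic intermediate. SHMT2 splits serine into glycine and a one-carbon unit in mitochondria, and MTHFD2 oxidises that unit on folate. ALDH18A1 begins and PYCR1 completes the synthesis of proline from glutamate, and ASNS makes asparagine. IGF2BP3 is an oncofetal protein that binds many mRNAs, often in their untranslated regions, and is known for effects on their stability, transport and translation. Neither ATF4 protein nor total RNA was analysed here.

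HCT116 is an established line from a human colorectal carcinoma, used here with a genotype labelled Tet-OsTIR1-PURO, and the labels do not say whether it is a single clone. Every group, controls included, received 100 µM 4-thiouridine for 15 h, a uridine analogue that crosslinks to bound protein under ultraviolet light of 365 nm (0.15 J/cm2). Crosslinked positions are then read as T-to-C conversions, the basis of the PAR-CLIP method. Tunicamycin (TM), which blocks N-linked glycosylation and so stresses the endoplasmic reticulum, was applied for 1 h or for 4 h (5 µg/mL). Its vehicle, DMSO, was applied for 4 h. The 1 h treatment is therefore set against a 4 h vehicle. Sodium arsenite, an oxidative stressor, was given at 250 µM for 2 h, with PBS for 2 h as its control; the sample titles say arsenite and the protocol arsenate. Each of these 5 conditions had 3 libraries made with an antibody against IGF2BP3 and 1 made with control IgG. Nothing in the labels says that the libraries of a condition came from separate cultures, so p-values measure only the spread between these libraries, which may be technical.

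Total gene counts ran from 130478 to 1568406 in the 15 anti-IGF2BP3 libraries and from 5981 to 17503 in the 5 IgG libraries. Arsenite libraries (414033 to 1098488) were mostly deeper than PBS libraries (130478 to 423906). By their names, the libraries of PBS and arsenite form a set apart from those of DMSO and tunicamycin. Of 7 epithelial markers (CDH1, CDX2, EPCAM, KRT18, KRT19, KRT8, VIL1) 7 carried a cluster of converted reads in at least 1 library, and of 6 markers of other cells (ALB, CD3E, COL1A1, COL1A2, PECAM1, PTPRC) 0 did. The epithelial ones were uneven, from VIL1 in 1 library (5 reads), CDX2 in 2 (16 reads) and KRT18 in 4 (40 reads) to KRT8 in 14 (444 reads). Levels below are CPM, counts scaled to a common library size, on one TMM scale over the 15 anti-IGF2BP3 libraries, given for replicates 1, 2 and 3 in that order. They are not divided by gene length, so levels are compared between conditions for a gene and never between genes. A count of recovered RNA follows both the amount of that RNA in the cells and the share of it bound by IGF2BP3, which cannot be told apart here.

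The deposited clusters, groups of overlapping converted reads called in each library, show where the recovered pieces lay. In the 15 anti-IGF2BP3 libraries 463 clusters fell within the 8 genes, all on one strand of each gene. MTHFD2 held 195 of them with 7456 reads in 15 libraries, PSAT1 held 103 with 2160 reads in 14 libraries, and PYCR1 held 75 with 1684 reads in 15 libraries. SHMT2 had 34 clusters in 10 libraries, ALDH18A1 had 29 in 12, PSPH had 17 in 10, ASNS had 6 in 3 and PHGDH had 4 in 3. Clusters of a gene that overlapped across libraries were joined into stretches, and distances are from the end of the gene in RefSeq. PSAT1 carried 93.2% of its cluster reads in a single stretch of 951 bases, chr9:78329061-78330011, which ended 82 bases before the gene end. PYCR1 carried 66.5% in chr17:81932805-81933232 and 27.3% in the adjoining chr17:81932492-81932804, the nearer of which ended 101 bases before the gene end. MTHFD2 carried 48.7% in chr2:74214201-74214660 and 31.8% in chr2:74214724-74215410, both present in 15 libraries and lying 2155 to 3364 bases before the gene end, and 3 shorter stretches further upstream recurred in 10 to 13 libraries. Whether a stretch is coding or untranslated was not assigned, since no exon annotation was used here.

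The following 30-base windows show the bound RNA of the genes and stretches on which the results turn, each taken at the position in its stretch shared by the largest number of libraries as the mode of a cluster, within 7 bases. That number was 3 to 8 of the 15 libraries, so for no window did it reach all libraries of its stretch. They are read from the deposited clusters on the strand of the gene (hg38 positions), with capitals for CAT or ACA, short CA-containing motifs known as favoured by the KH domains of IGF2BP proteins.
PSAT1, chr9:78329833-78329862, plus strand: aaaagacctagaagttcttgattCATtttt
MTHFD2, upstream, chr2:74208631-74208660, plus strand: CATgtaattaatgtaggacgaatgtgtttg
MTHFD2, upstream, chr2:74211219-74211248, plus strand: tctCATcgatatactcccaaagagcagttg
MTHFD2, upstream, chr2:74211804-74211833, plus strand: taaatagagttcacgatcctgtaactgcca
MTHFD2, first long stretch, chr2:74214278-74214307, plus strand: gccagctcaagaagcaaagcaggccaatag
MTHFD2, second long stretch, chr2:74215191-74215220, plus strand: tttttaagagtttgagttactattgaattt
PYCR1, chr17:81933068-81933097, minus strand: agggACATagccagggaggggccACATcac
PYCR1, chr17:81932590-81932619, minus strand: cctccctgggagggtgctatcagttctgtc

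The motifs were no more frequent in these genes than elsewhere. For this count a window was taken at the mode of each cluster of at least 30 bases in each library. A site seen in several libraries was therefore counted more than once. CAT was present in 189 of 418 windows from the 8 genes (45.2%) and in 50.4% of 364271 windows from all clusters. ACA was present in 148 of the 418 (35.4%) against 45.1% of all. The share of events in clusters that were T-to-C conversions was 6.83% in PSAT1, 7.16% in MTHFD2 and 10.9% in PYCR1, where the mean over all clusters was 7.73% to 8.70% by condition. In MTHFD2 it was 7.75% in the first long stretch, 5.53% in the second and 12.5% in the upstream stretch chr2:74211743-74211856.

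**Figure D1:**
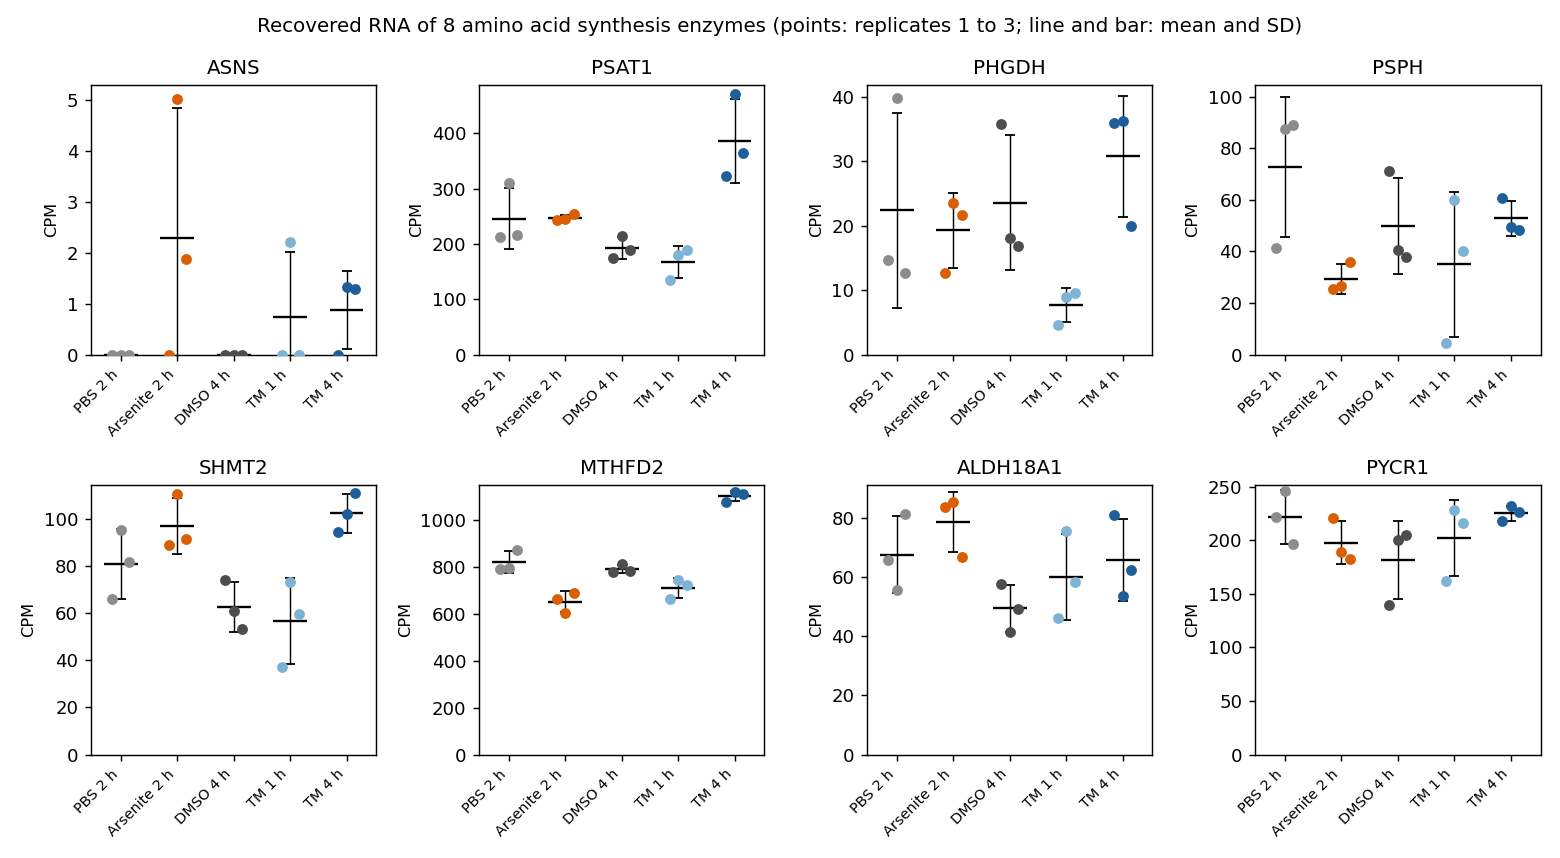
CPM of each of the 8 genes in the 15 anti-IGF2BP3 libraries, with points for replicates 1 to 3 of each condition, a line for the mean and a bar for the SD; each panel has its own linear axis from 0. PSAT1, SHMT2 and MTHFD2 have their highest means at TM 4 h, MTHFD2 has its lowest in arsenite, and ASNS is at 0 in all PBS and DMSO libraries.

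After 4 h of tunicamycin, recovered RNA of PSAT1, SHMT2 and MTHFD2 rose against DMSO, by 1.98-, 1.75- and 1.39-fold. PHGDH, PSPH, ALDH18A1 and PYCR1 did not pass the test, and ASNS, with 9 counts in 15 libraries, was not tested. The question of this comparison is how the RNA bound by IGF2BP3 differs under stress of the endoplasmic reticulum. Of the 7 members that passed the filter on low counts, 3 were called, all higher, against 5.11% of the 8343 genes tested (2.79% called higher). The median log2 fold change of the 7 was 0.44 against 0.00369 over all genes tested, and 7 of 7 estimates were above 0, as were 50.5% of all estimates.

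PSAT1, the transaminase of serine synthesis, stood at 176, 214 and 190 CPM in DMSO and at 324, 471 and 365 CPM at TM 4 h. The lowest treated library lay above the highest control, and the 3 treated libraries differed more among themselves than the 3 controls. The log2 fold change was 0.98 (SE 0.11, adjusted p = 2.65e-10, the quasi-likelihood test of edgeR, adjusted by the Benjamini-Hochberg method, as for all adjusted p-values here unless another tool is named). PHGDH, which catalyses the first step of the same pathway, was recovered in small numbers, 198 counts in 15 libraries. It stood at 35.7, 18.1 and 16.9 CPM in DMSO and at 36.0, 36.2 and 20.0 CPM at TM 4 h, so the groups overlapped (log2 fold change 0.44, SE 0.31, adjusted p = 0.503). PSPH, the phosphatase of the last step, stood at 71.3, 40.5 and 37.8 CPM in DMSO and at 60.7, 49.6 and 48.3 CPM at TM 4 h. Its treated libraries lay inside the range of the controls (log2 fold change 0.20, SE 0.23, adjusted p = 0.742).

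The mitochondrial enzymes that follow serine both rose. SHMT2 stood at 74.1, 60.8 and 53.1 CPM in DMSO and at 94.4, 102 and 111 CPM at TM 4 h, with no overlap (log2 fold change 0.81, SE 0.17, adjusted p = 0.00064). MTHFD2 stood at 776, 811 and 781 CPM in DMSO and at 1077, 1117 and 1109 CPM at TM 4 h. Both of its groups were tight, with SDs of 18.7 and 21.5 CPM, and did not overlap (log2 fold change 0.48, SE 0.075, adjusted p = 5.5e-06). Replicates 1 and 2 of the tunicamycin set were one library set and replicate 3 another. With replicates 1 and 2 alone, PSAT1 and MTHFD2 were still called and SHMT2 was not (log2 fold change 0.60, adjusted p = 0.206).

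The enzymes of proline synthesis did not pass the test at TM 4 h. ALDH18A1 stood at 57.6, 41.6 and 49.1 CPM in DMSO and at 80.9, 53.6 and 62.5 CPM at TM 4 h (log2 fold change 0.41, SE 0.20, adjusted p = 0.267), and 1 treated library lay within the range of the controls. PYCR1 stood at 140, 201 and 205 CPM in DMSO and at 218, 232 and 226 CPM at TM 4 h. Its groups did not overlap, while the difference was not called (log2 fold change 0.24, SE 0.11, adjusted p = 0.257). PYCR1 was 1 of 4 members with groups that did not overlap, with MTHFD2, PSAT1 and SHMT2, where 20.6% of all genes tested had such groups. ASNS, the asparagine synthetase, had counts of 0, 0 and 0 in DMSO and of 0, 1 and 2 at TM 4 h. A count of 0 in the 2622094 counts of the 3 DMSO libraries allows up to 1.14 CPM, for counting error only. Over the 15 anti-IGF2BP3 libraries ASNS had 28 cluster reads against 9 counts, so this ceiling covers counted RNA only. The reason for that gap was not tested.

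**Figure D2:**
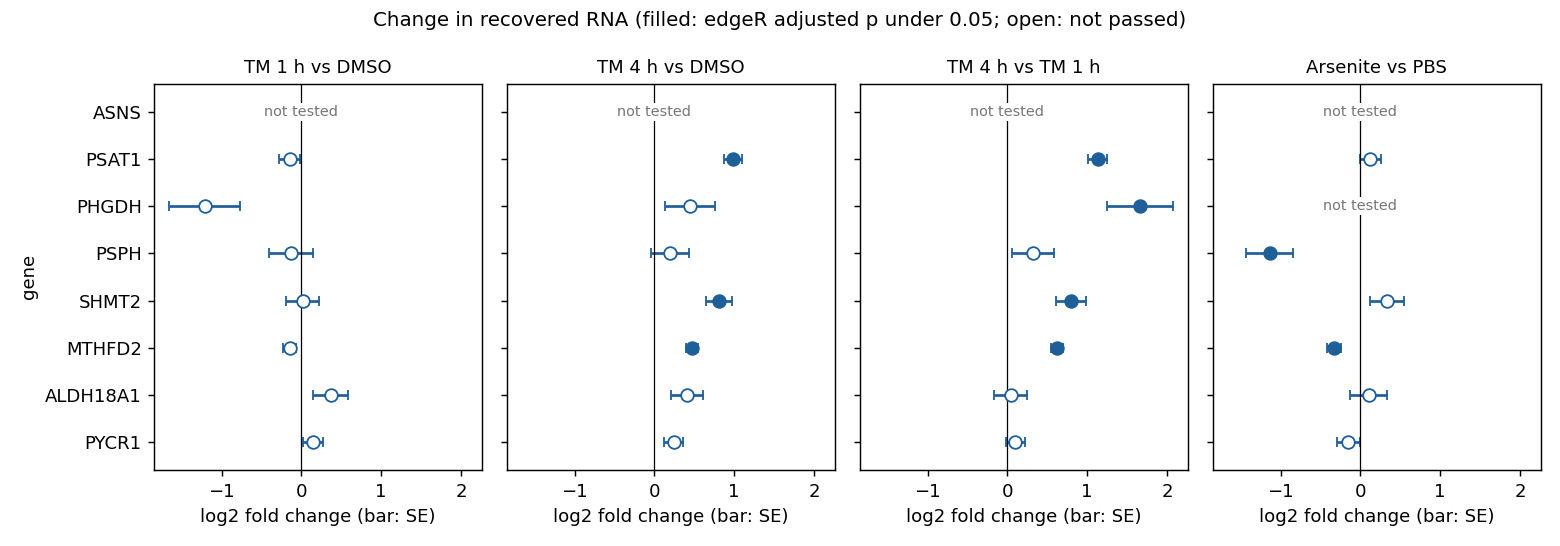
Log2 fold changes of the 8 genes in 4 comparisons, with bars for the SE; filled points had an adjusted p under 0.05 and open points did not, and genes that did not pass the filter are marked as not tested. PSAT1, SHMT2 and MTHFD2 are filled to the right of 0 at TM 4 h, no point is filled at TM 1 h, and PSPH and MTHFD2 are filled to the left of 0 in arsenite.

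At 1 h of tunicamycin no member was called. The counts were 0 of 7 by edgeR and 0 of 7 by DESeq2, against 0.551% of the 8343 genes by edgeR, and 1 member, PHGDH, had an unadjusted p under 0.05 by each tool. PHGDH stood at 4.63, 8.88 and 9.59 CPM, below all 3 DMSO libraries (log2 fold change -1.21, SE 0.44, adjusted p = 0.277). MTHFD2 stood at 662, 744 and 720 CPM, also below all 3 DMSO libraries (log2 fold change -0.15, SE 0.081, adjusted p = 0.586). Groups that did not overlap were found in these 2 members of 7 and in 15.3% of all genes tested. PSAT1 stood at 134, 180 and 189 CPM and overlapped DMSO (log2 fold change -0.15, adjusted p = 0.787). SHMT2 ranged from 37.0 to 73.3 CPM, ALDH18A1 from 46.3 to 75.5 and PYCR1 from 162 to 229, each overlapping DMSO. PSPH was at 59.9 and 40.3 CPM in replicates 2 and 3 and at 4.63 CPM in replicate 1, the shallowest tunicamycin library with 227961 counts.

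Set directly against the 1 h libraries, the 4 h libraries held more RNA of PSAT1, PHGDH, SHMT2 and MTHFD2. These were 4 of the 7 members tested, against 11.6% of all genes (5.6% called higher), and the same 4 had groups that did not overlap, as did 26.8% of all genes. The fold was 2.19 for PSAT1 (log2 1.13, SE 0.12, adjusted p = 5.66e-11), 1.74 for SHMT2 (log2 0.80, SE 0.18, adjusted p = 0.00143) and 1.54 for MTHFD2 (log2 0.62, SE 0.079, adjusted p = 1.71e-08). PHGDH had the largest estimate, 3.15-fold (log2 1.66, SE 0.41, adjusted p = 0.00361), which rests on 15 counts in the 3 libraries of 1 h and 74 in those of 4 h, and DESeq2, whose filter set it aside, gave no adjusted p for it (unadjusted p = 0.00114). Within replicates 1 and 2 SHMT2 was not called here either (log2 0.70, adjusted p = 0.118). PSPH (log2 0.33, adjusted p = 0.487), ALDH18A1 (log2 0.04, adjusted p = 0.936) and PYCR1 (log2 0.10, adjusted p = 0.675) did not pass. The comparisons with DMSO at both times use the same 3 control libraries.

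Under arsenite, recovered RNA of MTHFD2 and PSPH fell against PBS, and no member tested was called higher. This comparison addresses the same question under oxidative stress. In it 6 members passed the filter, without ASNS and PHGDH, and 2 were called, both lower. Of the 6642 genes tested 34.8% were called (17.1% called lower), so the share of members called was near that of genes at large. The median log2 fold change of the 6 was -0.022, against -0.00129 over all genes tested.

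MTHFD2 stood at 790, 795 and 871 CPM in PBS and at 662, 603 and 688 CPM in arsenite. The groups did not overlap and the difference was 1.26-fold (log2 fold change -0.33, SE 0.083, adjusted p = 0.000718). PSPH stood at 41.4, 87.4 and 89.2 CPM in PBS and at 25.4, 26.8 and 35.8 CPM in arsenite, also without overlap (log2 fold change -1.13, SE 0.29, adjusted p = 0.00107). These levels rest on few counts, 17, 11 and 35 in PBS and 10, 16 and 38 in arsenite. The low PBS library was replicate 1, and without PBS replicate 3 the call was lost (log2 fold change -0.76, adjusted p = 0.132). Groups that did not overlap were found in these 2 members and in 43.6% of all genes tested.

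PSAT1, which rose at TM 4 h, stood at 212, 310 and 217 CPM in PBS and at 244, 244 and 254 CPM in arsenite. Its arsenite libraries all lay inside the range of PBS (log2 fold change 0.12, SE 0.13, adjusted p = 0.499). SHMT2 stood at 65.8, 95.4 and 81.5 CPM in PBS and at 88.8, 111 and 91.5 CPM in arsenite, with overlap (log2 fold change 0.34, SE 0.22, adjusted p = 0.227). PYCR1 ranged from 196 to 246 CPM in PBS and from 183 to 221 in arsenite (log2 fold change -0.15, adjusted p = 0.43). ALDH18A1 ranged from 55.6 to 81.5 CPM in PBS and from 67.0 to 85.4 in arsenite (log2 fold change 0.11, adjusted p = 0.76). PHGDH, not tested here, ranged from 12.7 to 39.7 CPM in PBS and from 12.7 to 23.4 in arsenite. ASNS had counts of 0, 0 and 0 in PBS, which allows up to 3.13 CPM of counted RNA, and of 0, 3 and 2 in arsenite.

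The changes under the 2 stresses, each against its own control, differed in 3 members. The arsenite change minus the TM 4 h change was -0.87 on the log2 scale for PSAT1 (SE 0.18, adjusted p = 0.000194), -0.81 for MTHFD2 (SE 0.11, adjusted p = 4.2e-08) and -1.34 for PSPH (SE 0.37, adjusted p = 0.00563). For MTHFD2 the changes had opposite signs and were both called, while for PSAT1 only the rise at TM 4 h was called and for PSPH only the fall in arsenite. These were 3 of 7 members tested, against 18.3% of 7796 genes (9.74% in this direction). Without PBS replicate 3 the PSPH difference was not called (-0.94, adjusted p = 0.148). SHMT2 (-0.48, SE 0.27, adjusted p = 0.223), PYCR1 (-0.39, SE 0.18, adjusted p = 0.123), ALDH18A1 (-0.30, SE 0.30, adjusted p = 0.543) and PHGDH (-0.22, SE 0.57, adjusted p = 0.835) did not pass. The stresses differed in agent, duration, vehicle and library set, which cannot be told apart in this difference.

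Ordered over the 5 conditions, 5 members had their highest mean level at TM 4 h: PSAT1 (386 ± 75.9 CPM, SD, n = 3), PHGDH (30.7 ± 9.31), SHMT2 (102 ± 8.20), MTHFD2 (1101 ± 21.5) and PYCR1 (225 ± 7.03). The share of all genes with such an order, or with gaps between neighbours, was not computed, so the order is description only. PBS and arsenite belong to another library set and vehicle than DMSO and tunicamycin. Across the sets, condition, vehicle and library set cannot be told apart. For PSAT1 the next was arsenite (247 ± 5.57 CPM), clear of TM 4 h, and then PBS, DMSO and TM 1 h, each overlapping its neighbour. For MTHFD2 the order was TM 4 h, PBS (819 ± 45.7 CPM), DMSO (789 ± 18.7), TM 1 h (709 ± 42.3) and arsenite (651 ± 43.9). Its neighbours overlapped for PBS with DMSO and for TM 1 h with arsenite, and the other neighbours were apart. PHGDH had 1 gap, between arsenite and its lowest condition, TM 1 h (7.70 ± 2.68 CPM). In ASNS, PSPH, SHMT2, ALDH18A1 and PYCR1 every condition overlapped its neighbour in the order. PSPH was highest in PBS (72.7 ± 27.1 CPM) and lowest in arsenite (29.3 ± 5.67), and ALDH18A1 was highest in arsenite (78.7 ± 10.2) and lowest in DMSO (49.4 ± 8.01).

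The position of the reads on MTHFD2 also differed between conditions. In PBS, 93.9%, 100% and 93.5% of its cluster reads lay in the pair of long stretches found in all 15 libraries, and in arsenite 53.7%, 61.9% and 60.1% did. The share was 90.7%, 85.7% and 84.6% in DMSO, 100%, 95.7% and 88.2% at TM 1 h and 84.7%, 80.6% and 76.3% at TM 4 h. Every arsenite library lay below every library of the other conditions. Outside the long stretches PBS had 3, 0 and 2 clusters with 16, 0 and 18 reads, and arsenite had 5, 9 and 9 clusters with 94, 115 and 262 reads, the upstream stretches of the windows printed above among them.

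**Figure D3:**
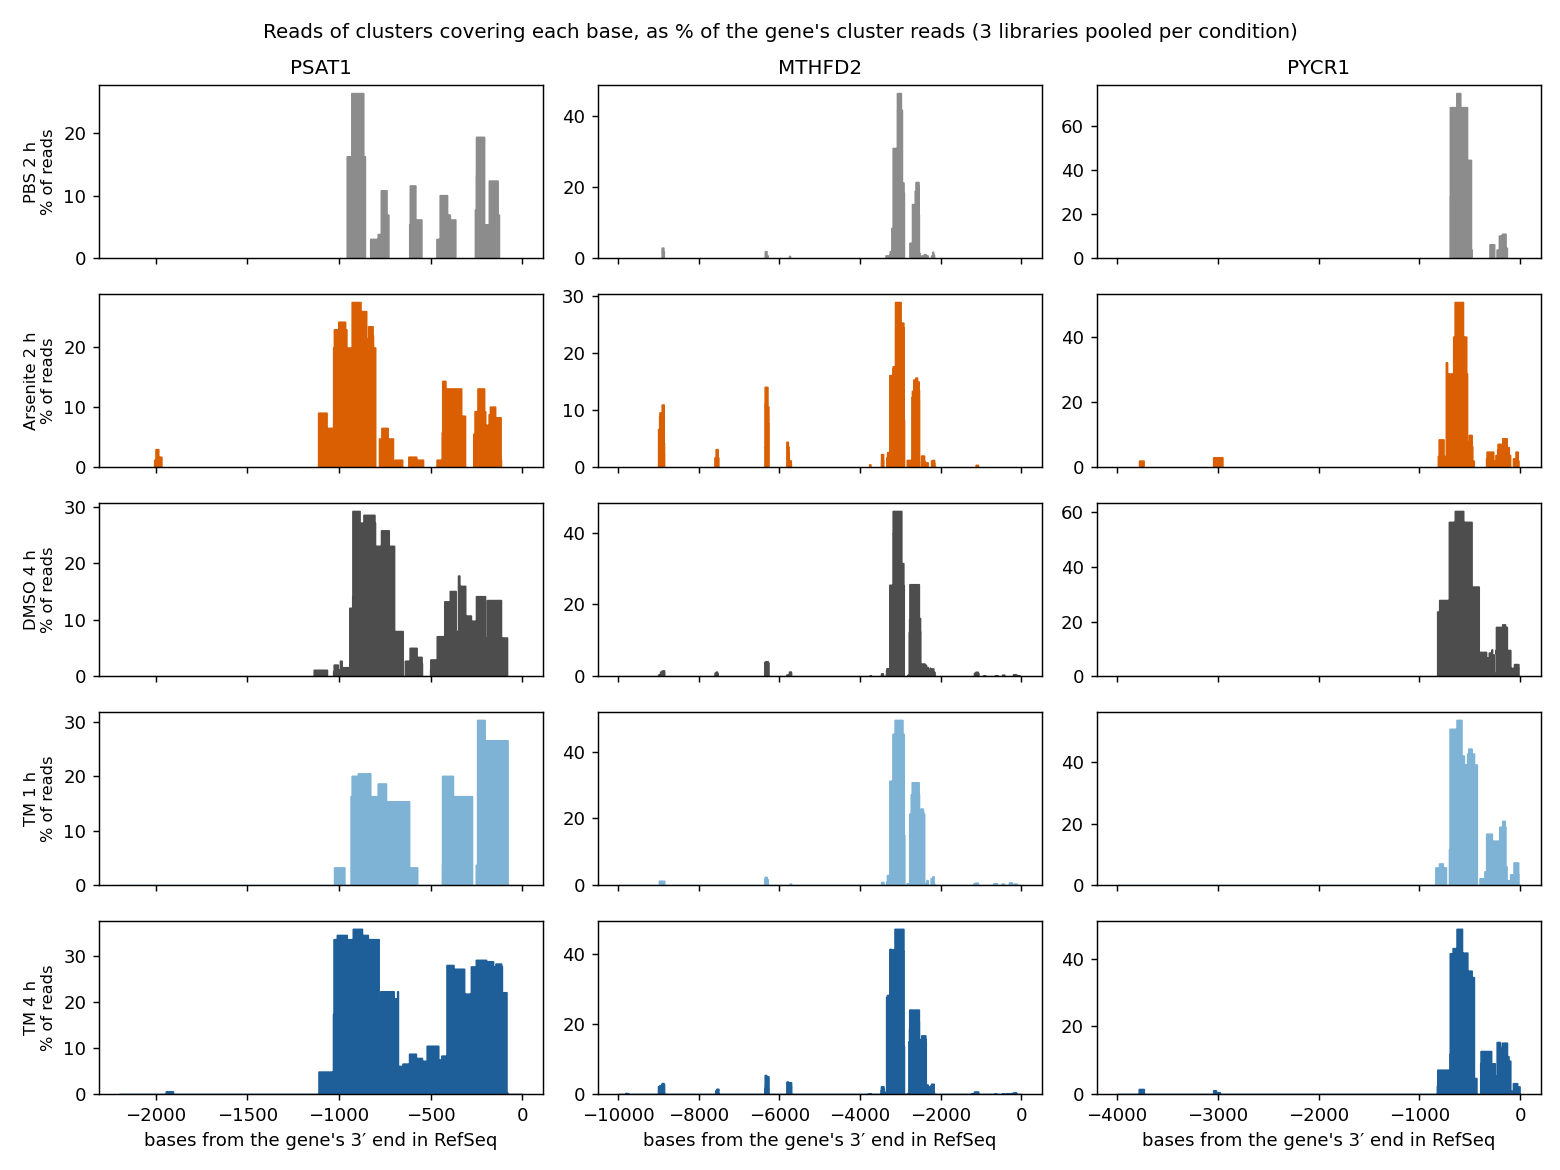
Share of the cluster reads of PSAT1, MTHFD2 and PYCR1 whose cluster covers each base, against distance in bases from the end of the gene in RefSeq, for the 3 libraries of each condition pooled; each panel has its own linear axis from 0. In arsenite MTHFD2 shows clusters between 6271 and 9004 bases before the gene end that are low in the other conditions, while PSAT1 and PYCR1 keep most reads near the gene end.

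The mean share in the long stretches of MTHFD2 was 95.8% ± 3.64 (SD, n = 3) in PBS and 58.6% ± 4.31 in arsenite, a difference of -37.2 percentage points. Genes at large also moved this way. This was taken over 279 entries with at least 30 cluster reads in each of the 6 libraries. An entry was a strand of a RefSeq protein-coding gene with a stretch seen in at least 14 libraries, so overlapping genes can share clusters. The share in such stretches changed by a median of -5.84 points. All arsenite libraries lay below all PBS libraries in 48.7% of the entries and above in 0. The 10th percentile was -21.3 points, and 3 of the 279, MTHFD2 included, fell by at least as much as MTHFD2. The arsenite libraries were mostly deeper than the PBS libraries, and clusters were called per library. In DMSO, TM 1 h and TM 4 h alike, the share fell from replicate 1 to replicate 3 while depth rose. In arsenite the shallowest library, replicate 1 (414033 counts), had the lowest share, 53.7%. PBS replicate 1 (423906 counts) had 93.9%. The part of depth in the difference between arsenite and PBS was not tested. With clusters of at least 10 reads only, the difference was -38.6 points. No test was made, since the stretches were defined on these libraries. PSAT1 moved less, from 100% in each PBS library to 80.8%, 90.1% and 81.9% in arsenite, and PYCR1 from 100% to 100%, 90.1% and 86.9%. Their PBS shares rest on few cluster reads, 49, 16 and 64 for PSAT1 and 59, 13 and 54 for PYCR1. In PBS replicate 2 both fell short of the minimum of 30 reads, so neither was among the 279.

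**Figure D4:**
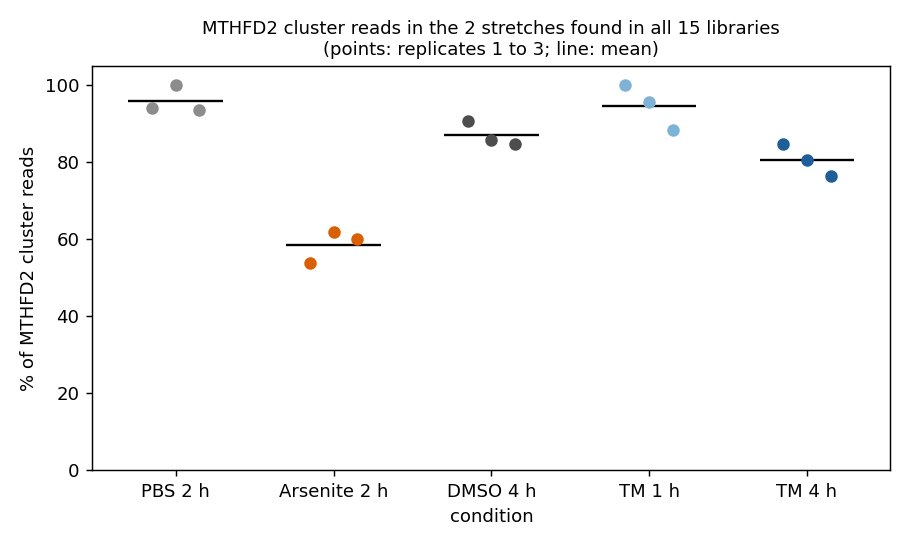
Share of MTHFD2 cluster reads that lay in the pair of long stretches found in all 15 libraries, in percent, with points for replicates 1 to 3 and a line for the mean of each condition. The arsenite libraries sit between 53.7% and 61.9%, and the lowest of the other libraries is at 76.3%.

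Between DMSO and TM 4 h the share in the long stretches of MTHFD2 differed by -6.47 points (87.0% ± 3.25 and 80.5% ± 4.2), and the groups overlapped narrowly. For PSAT1 the difference was -4.04 points. The median over 1171 entries, each a strand of a gene as above, was -1.04 points, and 170 of them fell by at least as much as MTHFD2.

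Cluster reads gave a second reading of the levels, here per 100000 cluster reads of a library and with no test. All TM 4 h libraries lay above all DMSO libraries in MTHFD2 (mean 137 against 95.6), PSAT1 (46.8 against 20.4), PYCR1 (25.1 against 18.7) and ALDH18A1 (3.13 against 1.04). These are 4 of the 6 members with clusters in at least 10 libraries, where 13.0% of 4052 genes had groups apart in either direction. Under arsenite MTHFD2 (83.4 against 120 in PBS) and PYCR1 (21.2 against 26.0) lay below in all libraries. Among the 6 members this share was near the 32.8% of genes apart. For PYCR1 the gap was narrow, from 23.4 in the highest arsenite library to 23.5 in the lowest PBS library. PYCR1 had 13 cluster reads in PBS replicate 2, and by counts its groups overlapped. PSPH, called lower in arsenite by counts, overlapped here. It had 5 cluster reads in PBS replicate 3, 6 in arsenite replicate 3 and none in the other libraries of that comparison. At TM 1 h only PSPH was apart from DMSO among the 6, below it, against 10.6% of genes. SHMT2, called higher at TM 4 h by counts, overlapped here (0.798 to 3.41 in DMSO and 1.86 to 8.59 at TM 4 h). It had 119 cluster reads in TM 4 h replicate 3 and 0 to 62 in each other library. The reading of ALDH18A1 rests on 0, 11 and 18 cluster reads in DMSO and 12, 10 and 43 at TM 4 h. That of PSPH at TM 1 h rests on 0, 5 and 4 cluster reads, against 11, 14 and 22 in DMSO. PHGDH had clusters in DMSO replicate 3 and TM 4 h replicates 2 and 3 alone, and ASNS in arsenite replicate 3 and TM 4 h replicates 2 and 3 alone, with 28 reads in all.

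Of 23 other genes of serine, glycine, folate, proline, glutamate, aspartate and transsulfuration metabolism, 13 had a cluster and 5 had clusters in at least 10 libraries: GLUD1, GLUL, GOT1, GOT2 and OAT. Between DMSO and TM 4 h, 0 of these 5 were apart, against 13.0% of 4052 genes. At TM 1 h GLUD1, the glutamate dehydrogenase, lay above DMSO (mean 17.8 against 13.1 per 100000 cluster reads), and the transaminases GOT1, GOT2 and OAT lay below (1.84 against 3.94, 10.4 against 15.6 and 0.786 against 5.11), where 10.6% of genes were apart. For GOT1 and OAT the lowest TM 1 h library had 0 cluster reads, and OAT had 178 in all, in 10 libraries. Clusters were called per library, and the part of depth in these differences was not tested. Under arsenite GOT1 lay above PBS, where it had no cluster read, and the glutamine synthetase GLUL lay below (25.7 against 34.3), where 32.8% of genes were apart. GOT1 ranged from 1.45 to 2.75 in arsenite. The PBS libraries were mostly shallower, and the part of depth here was not tested either. ALDH1L1, ALDH1L2, ALDH4A1, ASL, ASS1, CBS, GLS2, GPT, PRODH and PYCR3 had no cluster in any anti-IGF2BP3 library. These genes could not be looked up in the count table, whose identifiers are not paired with symbols in the tables used here.

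Across the 15 libraries the closest pairs of members by log2 CPM were PSAT1 with SHMT2 (Pearson's r 0.809), with PHGDH (0.702) and with MTHFD2 (0.694), while MTHFD2 and ALDH18A1 had r = -0.0869. The libraries share 5 conditions and their depth, so these values describe the libraries and carry no test. Of 4451 other genes, those closest to the mean profile of the 7 members that passed the filter were ENSG00000162244_12 (r = 0.908) and ENSG00000155463_14 (r = 0.89), which the files do not pair with names.

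The control IgG libraries give the background measured in the same way. Scaled to library totals, 0 of 6 members tested differed between anti-IGF2BP3 and IgG libraries by edgeR, against 1.31% of 7022 genes. Most of those genes were called lower with the antibody (1.22%), and 0.0854% were called higher, so few genes of any kind were called enriched. Among the members 1, PSPH, had an unadjusted p under 0.05. DESeq2 was not run on this comparison. The 5 IgG libraries held 33 counts of MTHFD2 in all, where the share in the anti-IGF2BP3 libraries would have given 42.6 at the IgG depth (log2 fold change 0.33, SE 0.25, adjusted p = 0.645). For PSAT1 these numbers were 10 and 13 (log2 fold change 0.35, SE 0.46, adjusted p = 0.872), for SHMT2 4 and 4.17, and for ALDH18A1 3 and 3.32. PYCR1 had 17 counts where 10.6 would have been given (log2 fold change -0.73, SE 0.40, adjusted p = 0.538). PSPH and PHGDH had 0 IgG counts, where 2.58 and 0.986 would have been given, and 0 in 52256 counts allows up to 57.4 CPM. With TMM scaling MTHFD2 was called higher with the antibody (log2 fold change 0.94, adjusted p = 0.00409), but that scaling also moved the median of all genes from 0.0924 to 0.712. A share of a gene's counts equal in both kinds of library says nothing of the amount of RNA recovered, and no member stood out from IgG by this measure at the IgG depth.

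**Figure D5:**
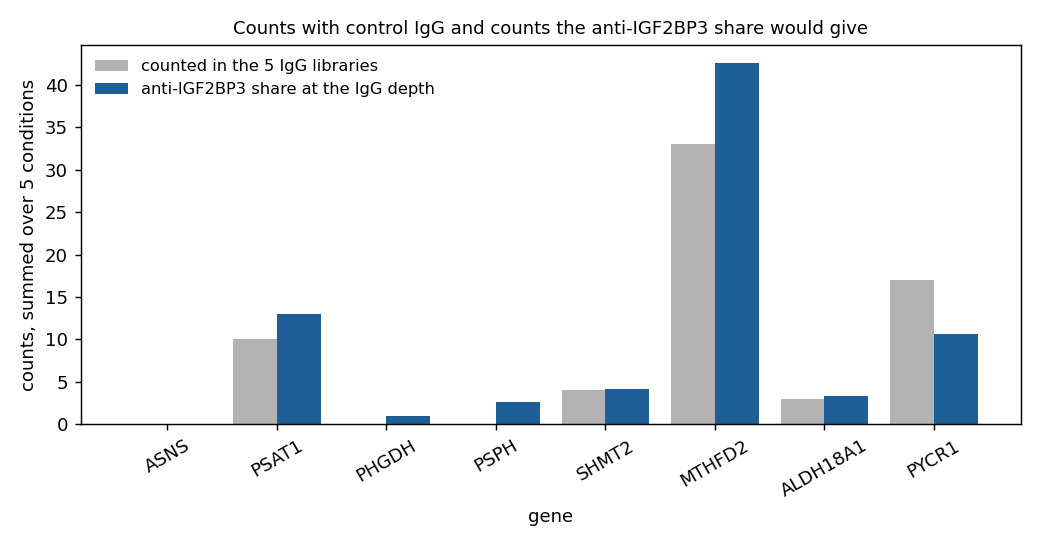
Counts of each of the 8 genes summed over the 5 IgG libraries (grey) beside the counts that the gene's share in the anti-IGF2BP3 libraries of the same conditions would give at the IgG depth (blue), on a linear axis from 0. The bars are 33 and 42.6 for MTHFD2, 17 and 10.6 for PYCR1 and 10 and 13 for PSAT1.

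The 5 IgG lists held 1 cluster in the 8 genes, of 6 reads, in MTHFD2. It stood in the list attached to the arsenite IgG library, whose count column held 1 count of MTHFD2 against 15 in that of PBS. The names that the PBS and arsenite IgG lists carry are swapped relative to their samples. The part of the low IgG depth, 5981 to 17503 counts, in this number was not tested.

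RefSeq promoter sequences (250 bases before to 50 after the start, GRCh38.p14) were held for 5 of the 8 members, with 6 promoters in all. The composite C/EBP and ATF motif was searched as TGATGNAA on both strands, since ATF4 is known to bind such elements. It was found in 1 of the 6, that of ASNS, 68 bases before the start, and in 3.62% of 35116 promoters. The window, with the motif in capitals, is shown because it is the only match among the members.
ASNS, chr7:97872458-97872487, minus strand: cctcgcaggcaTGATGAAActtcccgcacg

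How reads shared between near-identical or overlapping genes were counted is not given in the sources used here. RefSeq lists pseudogenes named for PSAT1, MTHFD2, PSPH and ASNS, and other genes overlap the ends of MTHFD2, SHMT2 and ASNS, so the counts of these members are uncertain to that extent.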

How the data were processed

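PAR-CLIP libraries of HCT116 cells were grouped by the antibody and treatment in the labels. The authors deposited whole-number counts per gene, raw since totals differ, with 1 column per library and 0 columns of no sample. Per the submitters' processing notes the tools were bcl2fastq 2.20.0.422, UMI-tools 1.1.1, Trimmomatic 0.30, Bowtie 0.12.7 and featureCounts 2.0.1, with builds GRCh38.p13 and hg38, and their roles are not given. The cluster caller and the use of strand in counting are not given in the sources used here. Per the file headers, each library's clusters carry read counts, conversion counts and a mode score, which was not used. The lowest read count of a cluster was 2. Cluster calls and counts both follow depth, and intervals and floors cover counting error only, since how molecular identifiers were used is not given. Per the labels' protocols more than 1 RNase concentration was used, without saying in which libraries.

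All genes were fitted with edgeR 4.0.16 in R 4.3.3 (filterByExpr, TMM, quasi-likelihood test, two-sided, Benjamini-Hochberg, threshold 0.05): 9 libraries of DMSO and tunicamycin, 6 of PBS and arsenite, 12 for the difference between stresses and 20 for IgG, the last scaled to library totals with condition as a covariate. The code was tested on simulated data. Alternatives were DESeq2 1.42.0, other scalings, filters, robust moderation, library sets, a replicate block and leaving out each library. A cluster belonged to a member if its midpoint lay within the RefSeq gene on the gene's strand. The sequence of 1157 of 1157 clusters lying within RefSeq promoter windows matched letter for letter, so positions are on the same build. The 8 members are all named, and the members and lists were chosen with earlier results of these data known. In the list of other pathway genes 1 gene is not reported here.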

Additional observations from a re-analysis of the deposited data

Results flagged for a closer look

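In 7 results the size of a member's change differed between times or stresses by a test of the difference itself (the quasi-likelihood test of edgeR, adjusted by the Benjamini-Hochberg method). Between 4 h and 1 h of tunicamycin the change differed by 1.13 on the log2 scale for PSAT1 (adjusted p = 5.66e-11), 1.66 for PHGDH (adjusted p = 0.00361), 0.80 for SHMT2 (adjusted p = 0.00143) and 0.62 for MTHFD2 (adjusted p = 1.71e-08), in each with all 3 libraries of 4 h above all 3 of 1 h. Of all genes tested 11.6% were called between the times. SHMT2 was not called within replicates 1 and 2 (adjusted p = 0.118), and DESeq2 gave no adjusted p for PHGDH. The arsenite change minus the TM 4 h change was -0.87 for PSAT1 (adjusted p = 0.000194), -1.34 for PSPH (adjusted p = 0.00563) and -0.81 for MTHFD2 (adjusted p = 4.2e-08), where 18.3% of all genes tested were called. PSPH was not called without PBS replicate 3 (adjusted p = 0.148). No group had enough libraries to test a single library as an outlier.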

How the results depend on the processing

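The members called were the same 3, 0, 4, 2 and 3 with the replicate number as a block (TM 4 h and TM 1 h against DMSO, TM 4 h against TM 1 h, arsenite against PBS, and the difference between stresses). No pairing by replicate number was seen: deviations of same-numbered libraries correlated at -0.0792 to 0.0646 over 9 pairs of the tunicamycin set and at -0.0324 to 0.00534 over 3 pairs of PBS and arsenite. With 3 libraries per condition these values cannot exclude pairing. In the tunicamycin set the number also follows the library set, since replicate 3 was a set apart from replicates 1 and 2. Over all member results and alternatives 546 values kept direction and side of the threshold, 17 changed sign, 4 lost a call and 1 gained one. Leaving out each library in turn left 3, 0 and 4 members called in the tunicamycin comparisons, 1 to 2 under arsenite (1 without PBS replicate 3), 2 to 3 for the difference between stresses, and 0 against IgG. A mean count of at least 50 left 1 member called under arsenite and 2 for the difference between stresses, since PSPH was then not tested, and 3 between the times, since PHGDH was not tested. TMM gave 1 against IgG. Clusters of at least 10 reads numbered 215 of the 463. The difference in the MTHFD2 share, -37.2 points, ran from -38.9 to -34.8 with a library left out, alternatives chosen after seeing the data. Every change of sign was in a log2 value that was not called. For SHMT2 at TM 1 h these were -0.018 by DESeq2, -0.0059 without a filter, -0.11 without TM 1 h replicate 2 and also without DMSO replicate 3, and -0.10 within replicates 1 and 2; leaving libraries out gave -0.11 to 0.11. For PSPH at TM 1 h they were 0.059 with DMSO replicate 1 left out and 0.076 with TM 1 h replicate 1 left out (range -0.42 to 0.076). For ALDH18A1 at TM 4 h against TM 1 h they were -0.028 and -0.045 without TM 1 h replicates 1 and 3, -0.064 without TM 4 h replicate 1 (range -0.064 to 0.17) and -0.0089 within replicates 1 and 2. The PHGDH difference between stresses was 0.12 without PBS replicate 2 (range -0.60 to 0.12). Against IgG, SHMT2 was -0.53, -0.32 and -0.11 without the PBS, arsenite and TM 1 h IgG library (range -0.53 to 1.52), and ALDH18A1 was -0.22 and -0.05 without the arsenite and TM 1 h one (range -0.22 to 0.53). The causes were not tested. Over all genes DESeq2 called 151 against 426 at TM 4 h, 6 against 46 at TM 1 h, 502 against 967 between the times, 1233 against 2310 under arsenite and 854 against 1427 for the difference between stresses. Replicates 1 and 2 alone gave 129, 16 and 488 in the tunicamycin comparisons, and a mean count of at least 50 gave 1380 under arsenite. Against IgG 92 became 582 with TMM and 27 with a mean count of at least 50. ASNS at 9 counts and PHGDH at 198 rest on few counts. ASNS had 28 cluster reads, more than its counts, and the reason was not tested.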
